A study of Mus musculus with 6 samples.

Results

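Mature myelin and oligodendrocyte genes were examined in the ipsilateral cortex of mice after photothrombotic stroke. They were 33 genes chosen by symbol for their known place in the myelin sheath or in the cell that makes it, and matched to the files by Ensembl identifier. Values were found for 31 of them, 30 of these in all 6 libraries, among 15441 genes with a value anywhere. The study used male C57/BL6J mice of 6 to 8 weeks, in which the dye Rose Bengal was given and cold light was shone through the intact skull on the sensorimotor cortex, so that vessels under the light clot. Sham-operated mice received no illumination and were taken at day 7 after the operation. The stroke mice were taken at days 1, 3, 7, 14 and 28. RNA of the whole ipsilateral cortex of 3 mice was pooled into each library, so every group is 1 library, no value has a replicate, and no test between groups was possible.

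Myelin is the stacked membrane that an oligodendrocyte wraps around axons. Its inner layers are held together by basic protein and proteolipids, its outer and axon-facing surfaces carry adhesion proteins, and its membrane is rich in galactolipids made by a short chain of enzymes. In the cortex, mature oligodendrocytes are a minority of cells, and their transcripts are among the most abundant glial messages. RNA of a whole cortex cannot tell fewer oligodendrocytes from less RNA per oligodendrocyte.

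The values are FPKM, read fragments scaled to transcript length and to library size, so levels of different genes can be compared. The files give an FPKM for each transcript start, transcript end and splicing event. The level of a gene was taken as the largest of its summed starts, its summed ends and any single event. A difference from sham is log2((FPKM + 0.1)/(sham FPKM + 0.1)), given for genes at 1 FPKM or more in either library, and a gene is called 2-fold higher or lower where it is at or past 1 or -1 on this scale. All 5 post-stroke values are set against the same sham library. A mean depth of 33.6 M reads was stated, but the files do not give the depth of a library, and no counting interval could be made. The libraries listed between 13263 and 13987 genes, and the day 14 library, with the fewest events (83501), also showed ratios that fell with transcript length (Spearman's rho -0.41 across genes, against -0.27 at day 1 and between -0.08 and 0.01 at the other days).

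Among the members are markers that define mature oligodendrocytes, and of these Mbp, Cnp, Mag, Mog and Opalin were listed in all 6 libraries. These markers were chosen as members, so their presence is a description and no check of the group. Mbp was the most abundant of them, at 1142 FPKM or more, followed by Cnp (129 to 179 FPKM), Mag (26.8 to 69.0 FPKM), Mog (28.0 to 44.9 FPKM) and Opalin (6.79 to 12.4 FPKM). Other abundant members, among them Ptgds, Qdpr, Trf and Apod, are made by other cells as well. Sox10, the factor that keeps oligodendrocyte identity and a gene outside the 33, stood at 16.9 FPKM in sham and between 13.6 (day 1) and 19.5 FPKM (day 14) after stroke.

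Most of the 30 genes listed throughout stayed within 2-fold of sham at every day. At day 1, 1 of 30 genes was 2-fold higher (Plekhb1) and 1 was 2-fold lower (Ugt8a), where 5.11% of all compared genes were higher and 4.48% were lower. At day 3, 3 of 31 were higher (Apod, Plekhb1 and Evi2a, the last not listed in sham and counted as 0 there) and 1 was lower (Nfasc), against 8.54% and 2.53% of all genes. At day 7, 3 of 31 were higher (Mag, Plekhb1 and Evi2a) and 0 were lower, against 8.53% and 2.12%. At day 14, 3 of 31 were higher (Apod, Plekhb1 and Evi2a) and 1 was lower (Nfasc), against 8.97% and 6.92%. At day 28, 1 of 30 was higher (Plekhb1) and 1 was lower (Ugt8a), against 3.68% and 2.79%. With so few members, 1 gene is about as large a share as this background. The 30 genes were all at 5 FPKM or more in both libraries, where fewer genes are called. Of all genes at that level, 106 of 6972 were higher and 57 lower at day 1. At days 3 and 7 it was 133 and 55 of 7124, and 127 and 39 of 7142. At days 14 and 28 it was 190 and 116 of 6920, and 61 and 44 of 7159. Between 0 and 2 members were called per direction at that level, and whether this sets them apart was not tested.

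With a lower limit of 1.5-fold, more members were counted. The members above it were Mag, Apod and Plekhb1 at days 1 and 28 (11.5% and 8.93% of all genes), Trf, Apod, Plekhb1 and Evi2a at day 3 (15.9%), Mag, Apod, Plekhb1 and Evi2a at day 7 (15.3%), and Ptgds, Trf, Apod, Plekhb1 and Evi2a at day 14 (18.5%). The members below it were Gjb1, Ugt8a, Fa2h and Tppp at day 1 (11.2% of all genes), Mog, Nfasc and Ptgds at day 3 (6.60%), Mog at day 7 (6.05%), Tspan2, Nfasc, Ugt8a and Tppp at day 14 (13.4%), and Pllp, Ugt8a, Fa2h and Ppp1r14a at day 28 (6.92%).

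The medians were close to 0 as well. The median log2 ratio of the members was -0.14, -0.04, 0.05, 0.07 and -0.18 at days 1, 3, 7, 14 and 28, where that of all compared genes was 0.01, 0.03, 0.03, 0.10 and 0.03. The direction was most uneven at day 28, when 21 of 30 genes were below sham and 9 were above, where 5430 of 11751 of all genes were below. At day 7 the members leaned the other way, with 21 of 31 above sham, where 6491 of 12069 of all genes were above. The typical distance from sham, taken without its sign, was 0.29, 0.29, 0.19, 0.37 and 0.40 for the members, against 0.28, 0.27, 0.25, 0.37 and 0.21 for all genes. For all genes at 5 FPKM or more in both libraries it was 0.21, 0.20, 0.18, 0.29 and 0.15. At day 28 the members thus stood about as far from sham as at day 14, while the genome as a whole stood nearer to sham than at any other day. By the same measure, the other mature oligodendrocyte and myelin genes described below stood at 0.25, 0.30, 0.20, 0.36 and 0.18. That list too was nearest to sham at day 28.

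**Figure D1:**
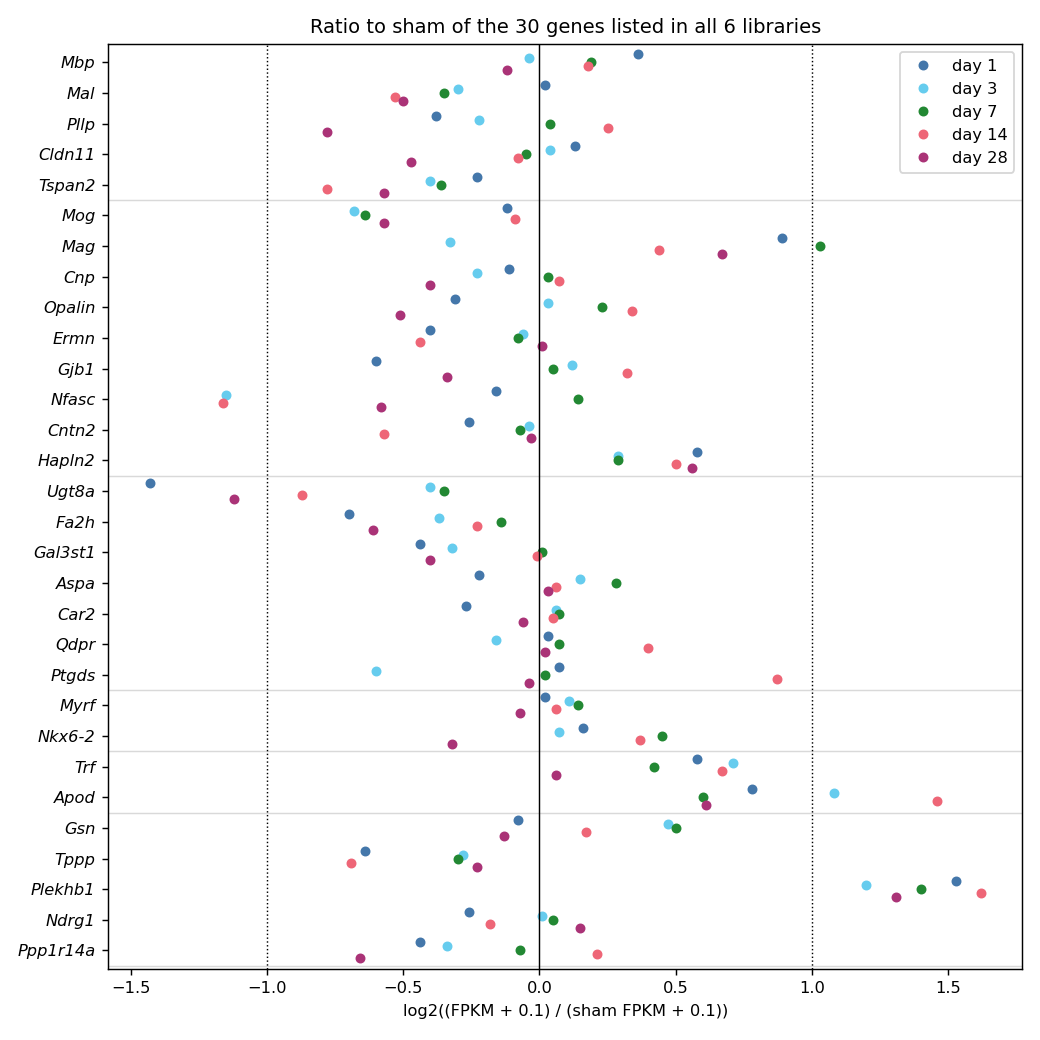
Log2 ratio to sham (x axis) of each of the 30 genes listed in all 6 libraries (y axis), with 1 point per post-stroke day. Grey lines part the genes by role in the order compact myelin, surface and channel proteins, lipid and metabolic enzymes, transcription factors, carriers and others, and dotted lines mark 2-fold. Most points lie between the dotted lines, and those outside belong to Mag, Nfasc, Ugt8a, Apod and Plekhb1.

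Over the 6 libraries, the ratio of a gene's highest to its lowest level had a median of 1.61-fold among the 30 genes, with 23 of them (76.7%) under 2-fold. Over the 10169 genes at 1 FPKM or more in all 6 libraries, the median was 1.59-fold and 76.0% were under 2-fold. The steadiest member was Myrf at 1.16-fold, a spread smaller than that of all but 1.87% of genes. The widest was Plekhb1 at 3.08-fold. The highest level of a gene fell at day 14 in 9 genes, at day 7 in 8 and in sham in 6, while the lowest fell at day 28 in 9 and at day 1 in 7, and day 7 held the lowest level of 0 genes. The same counts were not made over all genes, so they are not read as a trait of the myelin genes.

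**Figure D2:**
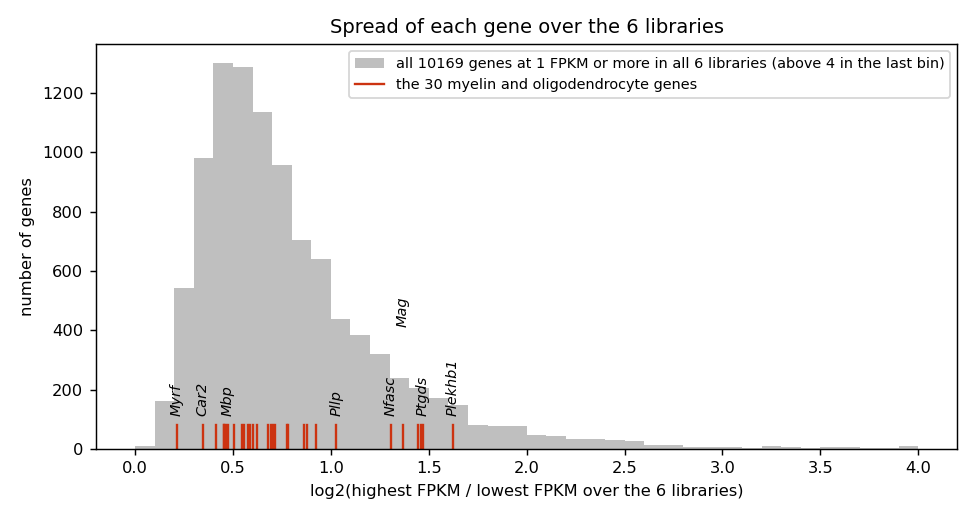
Distribution over all 10169 genes of the log2 ratio of the highest to the lowest FPKM among the 6 libraries (x axis, with values above 4 in the last bin) against the number of genes (y axis). Red ticks mark the 30 myelin and oligodendrocyte genes, some of them named. The ticks lie across the bulk of the distribution, from Myrf at 1.16-fold to Plekhb1 at 3.08-fold.

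Among the membrane proteins of compact myelin, Mbp, the basic protein that draws the inner membrane faces together, stood at 1241 FPKM in sham and at 1591, 1205, 1416, 1409 and 1142 FPKM at days 1, 3, 7, 14 and 28. It was highest at day 1 (0.36 above sham on the log2 scale) and lowest at day 28 (-0.12), a range of 1.39-fold. Taken by its listed ends alone, Mbp was 1.82 above sham at day 3, which the starts and splicing events did not show. Mal, a lipid-binding proteolipid of the sheath, went from 113 FPKM in sham to 115, 92.2, 88.9, 78.5 and 79.9 FPKM, with every library from day 3 on below both sham and day 1. Cldn11, which forms the tight junctions between myelin layers, stood at 119 FPKM in sham, between 113 and 130 FPKM from day 1 to day 14, and at 85.9 FPKM at day 28.

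Pllp, a proteolipid related to Mal, had its highest and lowest levels in neighbouring samples, 31.2 FPKM at day 14 and 15.3 FPKM at day 28, with 26.3 FPKM in sham. Tspan2, a tetraspanin of the early sheath, was highest in sham at 36.2 FPKM and lowest at day 14 at 21.0 FPKM. As a group, 5 of 5 measured compact-myelin genes were below sham at day 28, where 5430 of 11751 of all compared genes were below. The median log2 ratio of the 5 genes was -0.50, with a range from -0.78 to -0.12, and 0 of them were 2-fold lower. At day 1 the median of the same 5 genes was 0.02.

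Mobp, another basic protein of compact myelin, has its own identifier on no event. The 31 events inside its span on chromosome 9 (120149707 to 120181484) carry the identifier of the neighbouring non-coding gene Gm38642. The start events in the span, which begin at the first annotated exon of Mobp, stood at 410 FPKM in sham and at 481, 424, 410, 197 and 324 FPKM at days 1, 3, 7, 14 and 28. By these starts, the log2 ratio was -1.06 at day 14 and between -0.34 and 0.23 at the other days. Mobp is counted in no comparison for this reason, and this reading was chosen after its values were seen.

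The surface and axon-facing proteins held the members that moved in opposite ways. Mog, an immunoglobulin-like protein of the outermost lamella, stood at 44.9 FPKM in sham and at 41.2, 28.0, 28.7, 42.1 and 30.1 FPKM in the same order of days. Days 3, 7 and 28 were low together, at log2 ratios of -0.68, -0.64 and -0.57. Mag, the adhesion protein of the innermost lamella that faces the axon, stood at 33.8 FPKM in sham and at 62.6, 26.8, 69.0, 45.9 and 54.0 FPKM at days 1, 3, 7, 14 and 28. It was above sham in 4 of 5 post-stroke libraries, most at day 7 (1.03 on the log2 scale), and below it at day 3 (-0.33). The day 7 value lay at the 2-fold line, and with the length trend removed it was 0.98.

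Mag is known to be made in a long and a short form that differ in their cytoplasmic end, and a single exon that is kept or skipped decides between them. That exon is listed here at chromosome 7, 30900352 to 30900396 (GRCm38, minus strand, 45 bases), and it brings its own stop codon. Of its 45 bases, 30 are coding. The reading of the spliced transcript across the junction is shown from the GENCODE M21 transcripts for both forms, with the last 30 bases of the exon before it in lower case. The capitals mark the coding bases and stop codon of the kept exon (33 bases), or the first 30 bases of the exon that follows when it is skipped.
Mag, exon kept: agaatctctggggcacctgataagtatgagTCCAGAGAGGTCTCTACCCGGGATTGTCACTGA
Mag, exon skipped: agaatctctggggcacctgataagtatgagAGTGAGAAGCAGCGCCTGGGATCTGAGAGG
The share of Mag FPKM that kept the exon was 56.5% in sham and 31.5%, 60.7%, 48.5%, 65.2% and 76.0% at days 1, 3, 7, 14 and 28. The form with the exon stood at 18.7 FPKM in sham and at 19.5, 15.4, 33.2, 29.8 and 40.8 FPKM after stroke. The form without it stood at 14.4 FPKM in sham and at 42.5, 10.0, 35.3, 15.9 and 12.9 FPKM. The day 1 level of the gene was therefore mostly the skipped form, and the day 28 level mostly the kept form, although the summed levels of the gene at these days (62.6 and 54.0 FPKM) were alike.

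Cnp, an enzyme of non-compact myelin that keeps cytoplasmic channels open, stood at 171 FPKM in sham and at 158, 145, 175, 179 and 129 FPKM at days 1, 3, 7, 14 and 28. Its summed starts ranged over only 1.38-fold, but the start used did not stay the same. The upstream start (chromosome 11, 100574904) made up 45.0% of the summed starts in sham, 97.5% at day 1, 23.1% at day 3, and 97.6%, 98.1% and 97.3% at days 7, 14 and 28. Nearly all of the rest belonged to a start inside the first intron at 100575524, at 93.9 FPKM in sham, 109 FPKM at day 3, and between 3.34 and 4.19 FPKM in the other 4 libraries. Sham and day 3 were the libraries with high use of the downstream start, a split that was read from these shares themselves. Taken by its listed ends alone, Cnp stood at log2 ratios of 3.85, 4.25 and 3.88 at days 7, 14 and 28, so its level rests on the starts.

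The bases upstream of the first start are shown for Cnp and Mag, since their starts carry the level of the gene (RefSeq, GRCm38.p6, ending at the base before the start the files list). The window of Cnp is chr11:100574689-100574903 on the plus strand and that of Mag is chr7:30914874-30915113 on the minus strand. Capitals mark the letters ACAAAG, which SOX factors are known to read, and CTGGCAC, a form of the sequence that Myrf is known to read, on either strand.
Cnp, upstream: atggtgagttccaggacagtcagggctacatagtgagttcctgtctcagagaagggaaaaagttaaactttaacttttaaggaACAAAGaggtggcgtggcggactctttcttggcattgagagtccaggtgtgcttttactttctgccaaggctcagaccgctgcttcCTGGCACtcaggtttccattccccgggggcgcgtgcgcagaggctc
Mag, upstream: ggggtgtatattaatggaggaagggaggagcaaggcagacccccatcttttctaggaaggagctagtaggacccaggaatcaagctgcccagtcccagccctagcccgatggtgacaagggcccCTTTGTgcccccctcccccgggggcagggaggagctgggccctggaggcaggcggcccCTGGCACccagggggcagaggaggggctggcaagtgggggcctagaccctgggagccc
In both windows each motif occurred once. ACAAAG on either strand was found in 16.5% of all 32851 RefSeq windows of 250 bases and in 10 of the 38 windows of members (26.3%), which belong to 26 of the 33 genes. CTGGCAC was found in 4.19% of all windows and in 4 of the 38 (10.5%), those of Mag, Cnp and Hapln2. A match of letters is a description and no evidence of binding.

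Opalin, a glycoprotein of the inner loops that is restricted to oligodendrocytes, stood at 9.73 FPKM in sham and at 7.85, 9.96, 11.4, 12.4 and 6.79 FPKM at days 1, 3, 7, 14 and 28. At day 3 a shorter last exon made up 64.1% of its summed ends, and this end was not listed in the other 5 libraries. Ermn, a cytoskeletal protein of the late sheath, stayed between 11.2 FPKM (day 14) and 15.3 FPKM (day 28), with 15.2 FPKM in sham. Gjb1, the connexin that joins layers of the sheath, ranged from 5.04 FPKM at day 1 to 9.59 FPKM at day 14, with 7.66 FPKM in sham. Hapln2, a link protein of the nodal matrix, was lowest in sham at 7.82 FPKM and stood between 9.60 and 11.7 FPKM in all 5 post-stroke libraries, at log2 ratios from 0.29 to 0.58.

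Nfasc and Cntn2 are adhesion proteins of the node and its flanks that neurons also express. Nfasc stood at 32.3 FPKM in sham and at 29.0, 14.5, 35.6, 14.4 and 21.6 FPKM at days 1, 3, 7, 14 and 28. Days 3 and 14 were both low, at log2 ratios of -1.15 and -1.16, while day 7 between them was the highest library. At day 14 the ratio was -0.82 by the summed starts and -0.88 with the length trend removed, which ends the 2-fold call. Cntn2 ranged only from 8.45 FPKM at day 14 to 12.6 FPKM in sham. The neuron marker list (11 of 12 genes with a value, Tubb3 not listed) summed to 2331 FPKM in sham and to 2308, 1755, 2049, 1990 and 2289 FPKM at days 1, 3, 7, 14 and 28. Days 3 and 14, when Nfasc was low, were thus among the 3 days on which this sum was below the other libraries, but so was day 7, when Nfasc was highest, and the part of neurons in the Nfasc values was not tested.

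The forms of Nfasc also differed between libraries. Oligodendrocytes and neurons are known to make different forms of this protein, which the files do not name. A block of 4 exons with 522 bases (chromosome 1, 132582995 to 132593365) was kept in 55.0% of the FPKM in sham and in 61.0%, 45.9%, 58.3%, 100% and 81.8% at days 1, 3, 7, 14 and 28. A pair of exons with 321 bases (132597765 to 132600214) was kept in 46.6% in sham and in 18.9%, 43.6%, 34.9%, 0.572% and 29.0%. At day 14 the form with the 4-exon block and without the exon pair was therefore nearly the only one listed. The downstream start at 132707406 (first exon from 132707099) made up 73.1% of the summed starts at day 3 and between 0.568% (day 14) and 27.0% (day 7) in the other libraries.

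**Figure D3:**
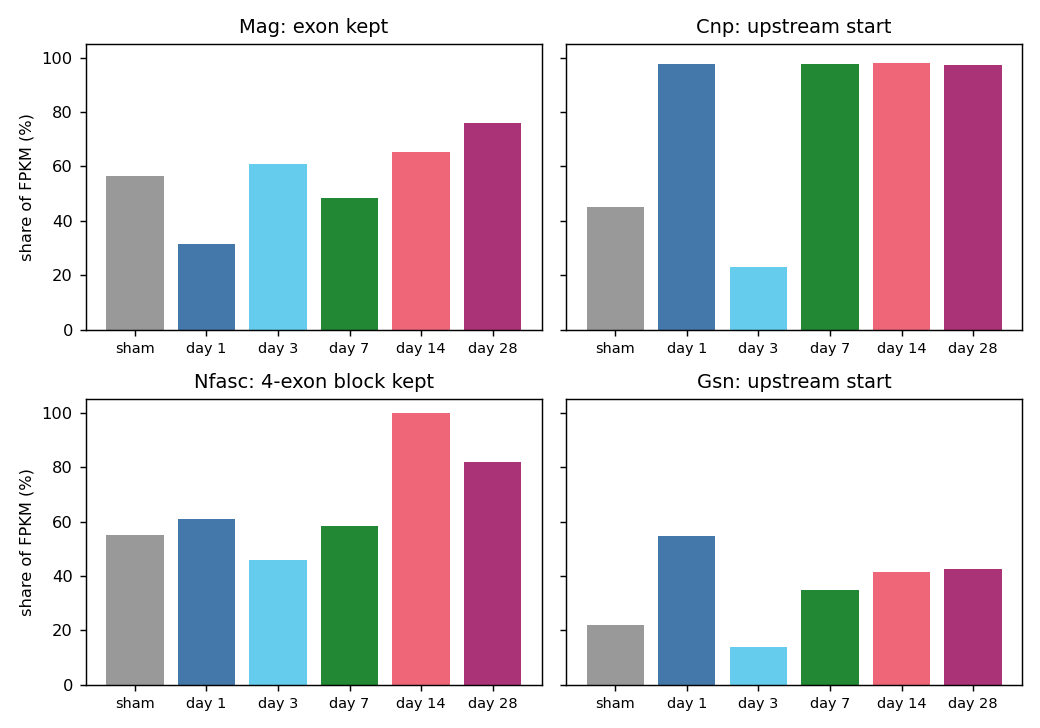
Share of FPKM (y axis, in percent, from 0) that kept the 45-base exon of Mag, used the upstream start of Cnp, kept the 4-exon block of Nfasc or used the upstream start of Gsn, with 1 bar per library (x axis). The Cnp bars stand at 45.0% and 23.1% in sham and at day 3 and above 97% elsewhere, the Nfasc bar reaches 100% at day 14, and the Mag bar is lowest at day 1 and highest at day 28.

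Of the enzymes, Ugt8a was the member furthest below sham. It makes galactosylceramide, the main galactolipid of myelin. Its level was 17.8 FPKM in sham and 6.56, 13.5, 14.0, 9.71 and 8.17 FPKM at days 1, 3, 7, 14 and 28. All 5 post-stroke libraries were below sham, by log2 ratios of -1.43 (day 1) and -1.12 (day 28), with a return toward sham at days 3 and 7 (-0.40 and -0.35). Fa2h, which hydroxylates the fatty acids of the same lipids, had a like order, with 17.3 FPKM in sham and 10.6, 13.3, 15.7, 14.7 and 11.3 FPKM after stroke. Gal3st1, which turns galactosylceramide into sulfatide, stood at 7.76 FPKM in sham and at 5.70, 6.22, 7.82, 7.69 and 5.85 FPKM after stroke. The 3 enzymes of this chain thus had their lowest levels at day 1 and their next lowest at day 28. Gjb1 and Car2, members outside this chain, were also lowest at day 1 and next lowest at day 28. Of 12 other genes of galactolipid and sphingolipid synthesis, 11 had a value, and their median log2 ratio was 0.00 at day 1 and -0.13 at day 28. At day 1, 5 of these 11 were below sham, down to -0.95 for Sptlc2, a subunit of the first enzyme of sphingolipid synthesis. The difference between them and the 3 enzymes above was not tested.

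Aspa, which breaks down N-acetylaspartate to supply acetate for lipids, ranged from 8.05 FPKM at day 1 to 11.4 FPKM at day 7, with 9.41 FPKM in sham. By its summed starts alone it was at 4.73 at day 7, which its ends and splicing events do not show. Car2, the carbonic anhydrase of oligodendrocytes, varied little, from 71.6 FPKM at day 1 to 91.0 FPKM at day 7, with 86.6 FPKM in sham. Qdpr, which regenerates tetrahydrobiopterin, stayed between 96.2 and 113 FPKM except at day 14, when it stood at 141 FPKM. With the length trend removed, the day 14 log2 ratio of Qdpr went from 0.40 to 0.04.

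Ptgds, the prostaglandin D synthase that oligodendrocytes, leptomeninges and choroid plexus make, was the most abundant member after Mbp. It stood at 1075 FPKM in sham and at 1132, 711, 1092, 1969 and 1044 FPKM at days 1, 3, 7, 14 and 28. Day 3 was low (-0.60 on the log2 scale) and day 14 was high (0.87), while the other 3 days were within 0.07 of sham. These ratios depended on the events used. By the summed starts of Ptgds they were 0.39, -0.27, 0.34, 1.20 and 0.28 at days 1, 3, 7, 14 and 28, which makes the 2-fold call at day 14 and ends the 1.5-fold call at day 3. With the length trend removed the day 14 ratio was 0.52. A shorter exon form made up between 18.8% and 27.0% of Ptgds in 5 libraries and 0.00292% at day 3. The drop at day 3, from 1075 to 711 FPKM, was thus made up of the 217 FPKM of this form in sham, which stood at 0.0207 FPKM at day 3, and of a lower level of the longer form (859 and 711 FPKM).

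Myrf, the factor that turns on the genes of mature myelin, was flat. Its levels were 6.73 FPKM in sham and 6.84, 7.25, 7.41, 7.02 and 6.41 FPKM at days 1, 3, 7, 14 and 28. By its summed starts alone it was at -2.96 at day 14, a drop that its ends and splicing events do not show. Nkx6-2, a homeobox factor of late oligodendrocytes, ranged from 7.22 FPKM at day 28 to 12.4 FPKM at day 7, with 9.04 FPKM in sham. By its listed ends alone Nkx6-2 was at -2.75 at day 28. Among the other lineage factors, Olig2 stood at 10.2 FPKM in sham and between 8.65 (day 28) and 13.1 FPKM (day 7), while Olig1 had no value.

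**Figure D4:**
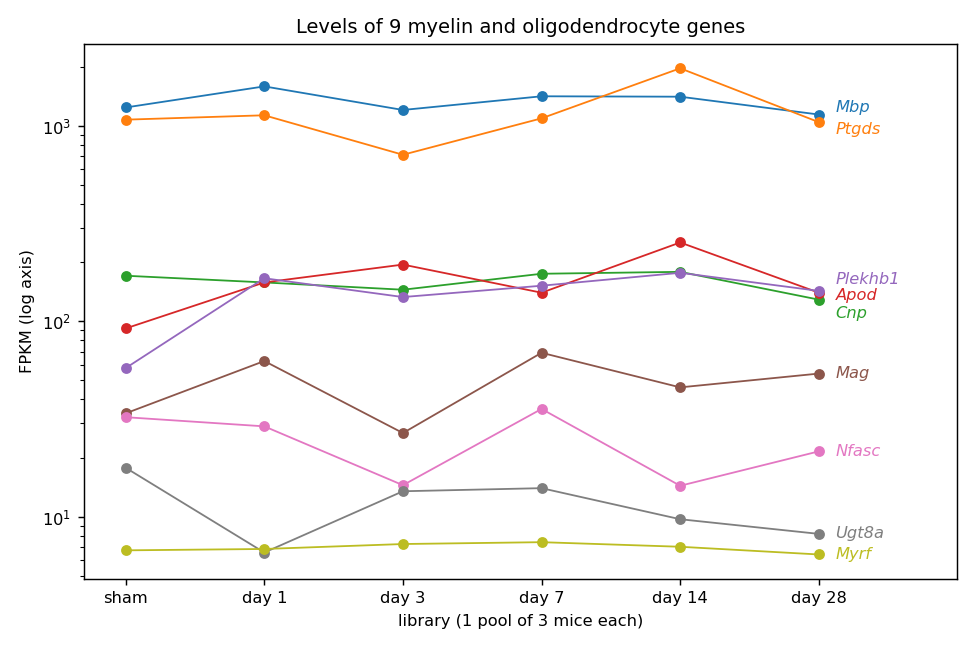
FPKM on a log axis (y axis) in the 6 libraries (x axis, 1 pool of 3 mice each) of 9 members. Mbp, Cnp and Myrf run flat, Apod and Ptgds peak at day 14, Plekhb1 is low only in sham, Ugt8a is lowest at day 1, and Mag and Nfasc go up and down between days.

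The 2 carriers stood above sham at every day. Trf, transferrin, which in the brain is made by oligodendrocytes and choroid plexus, stood at 91.9 FPKM in sham and at 138, 151, 123, 146 and 95.5 FPKM at days 1, 3, 7, 14 and 28. It was 0.42 to 0.71 above sham from day 1 to day 14 and 0.06 above it at day 28. Apod, a lipid carrier that oligodendrocytes and perivascular and leptomeningeal fibroblasts express, stood at 91.9 FPKM in sham and at 158, 195, 140, 253 and 140 FPKM. All 5 post-stroke libraries were higher than sham, with 2-fold calls at day 3 (1.08) and day 14 (1.46). Both calls rest on the 1 sham pool, since against the median of the other 5 libraries Apod was at 0.48 at day 3, 0.85 at day 14 and -0.78 in sham.

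Markers of cells other than oligodendrocytes that make these proteins moved as well. The leptomeningeal and fibroblast list (10 of 10 genes with a value in all 6 libraries) summed to 70.5 FPKM in sham and to 70.1, 142, 165, 162 and 71.2 FPKM at the 5 days in turn. The choroid plexus list (7 of 8 genes with a value, Prlr not listed and Otx2 not listed at day 3) summed to 290 FPKM in sham and to 470, 186, 352, 301 and 569 FPKM, most of it Ttr. The first list was high at days 3, 7 and 14, which include the 2 highest days of Apod, but Apod at day 7 was no higher than at day 28. The choroid list was lowest at day 3, as was Ptgds, but highest at day 28, when Ptgds was near its sham level. The part of these cells in the Apod, Trf and Ptgds values was not tested.

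The main start of Apod lies at chromosome 16, 31314808 (minus strand), the same base as the RefSeq start, and made up between 83.7% and 91.7% of its summed starts in all 6 libraries, so its level moved with 1 start. The 250 bases before it, chr16:31314809-31315058, are shown for this reason with ACAAAG in capitals, and CTGGCAC did not occur in them.
Apod, upstream: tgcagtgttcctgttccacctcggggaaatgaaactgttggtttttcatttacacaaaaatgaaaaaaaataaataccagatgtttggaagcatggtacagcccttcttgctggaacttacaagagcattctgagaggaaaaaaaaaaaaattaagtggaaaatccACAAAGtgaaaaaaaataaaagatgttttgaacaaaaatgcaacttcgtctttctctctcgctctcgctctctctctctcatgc

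Plekhb1, a membrane-bound protein with a pleckstrin homology domain, had the largest ratios among the 30 genes listed in all 6 libraries. It stood at 57.6 FPKM in sham and at 166, 133, 152, 177 and 143 FPKM at days 1, 3, 7, 14 and 28. The 5 post-stroke levels lay 1.20 to 1.62 above sham on the log2 scale. The single sham library was the one that stood apart. Set against the median of the other 5 libraries, the log2 ratio of Plekhb1 was -1.40 in sham and between -0.20 and 0.31 at every day. A difference between stroke and sham mice and a deviation of this 1 sham pool cannot be told apart.

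Of the remaining members, Tppp, which bundles microtubules in oligodendrocytes, was highest in sham at 93.7 FPKM and lowest at days 1 and 14, at 60.1 and 57.9 FPKM. Gsn, an actin-severing protein, stood at 28.4 FPKM in sham and at 26.9, 39.5, 40.1, 32.1 and 26.0 FPKM after stroke. Its upstream start made up 22.1% of the summed starts in sham and 54.8%, 13.9%, 35.0%, 41.6% and 42.4% after stroke, so the higher Gsn at day 3 came from the downstream start (33.9 against 22.1 FPKM in sham). Ndrg1, a stress-responsive protein also found in myelinating cells, stayed between 39.1 and 52.0 FPKM. Ppp1r14a, an inhibitor of myosin phosphatase, ranged from 10.8 FPKM at day 28 to 19.9 FPKM at day 14, with 17.1 FPKM in sham. Evi2a, a small membrane protein, was not listed in sham, at day 1 or at day 28 and stood at 2.99, 2.83 and 2.47 FPKM at days 3, 7 and 14, so no ratio is given. Gpr37, a receptor that restrains oligodendrocyte maturation, had no event in any library.

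In all, the shares of 28 alternative starts, ends or exon forms could be measured in 11 members, counting those for which the form and its alternative each reached 5 FPKM in a library. A share that ranged over 20 percentage points or more was found for 14 forms of 6 members, Mag, Cnp, Opalin, Nfasc, Ptgds and Gsn. This limit was chosen after the values were seen. A form and its alternative can both be among the 14, as for the starts of Cnp, Nfasc and Gsn and the ends of Opalin. How often forms of other genes range as widely was not measured, so the count is not read as a trait of the members. The forms of Mbp were measured by both of its alternative exons. A 123-base exon of Mbp on chromosome 18 was kept in 21.4% in sham and in 18.8% (day 28) to 22.0% (day 14) after stroke. A 78-base exon, the one known to mark the forms of early oligodendrocytes, was kept in 1.48% in sham and in 0.265% to 0.409% after stroke. The form with it stood at 18.4 FPKM in sham and between 3.64 and 5.79 FPKM in the 5 post-stroke libraries. A limit in percentage points cannot register this difference. As for Plekhb1, a difference between stroke and sham mice and a deviation of the 1 sham pool cannot be told apart. These shares rest on FPKM of transcripts estimated from 1 library each, so their error is unknown.

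Since all ratios share the sham library, each library was also set against the median of the other 5. In this view 2 of 31 members were 2-fold away in sham (Plekhb1 and Evi2a, both lower), where 6.81% of all genes were 2-fold away. There were 2 at day 1 (Ugt8a and Evi2a, both lower, 7.56%), 2 at day 3 (Evi2a higher and Mag lower, 6.55%), 1 at day 7 (Evi2a higher, 6.97%), 2 at day 14 (Evi2a higher and Nfasc lower, 11.0%) and 1 at day 28 (Evi2a lower, 6.25%). The calls against sham of Mag at day 7 (0.59 in this view), Nfasc at day 3 (-0.99) and Ugt8a at day 28 (-0.72) ended. The median over the members was -0.02 in sham and -0.11, 0.01, 0.09, 0.17 and -0.30 at days 1, 3, 7, 14 and 28. Day 28 was thus the lowest library for the group in this view as well. By the summed ends against sham it was not, with a median of -0.07 at day 28 and -0.12 at day 1.

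The other genes of the lineage were described by the same measures. A list of 30 other mature oligodendrocyte and myelin genes, 26 of them with a value, had median log2 ratios of -0.18, 0.05, 0.06, -0.07 and -0.12 at days 1, 3, 7, 14 and 28. Oligodendrocyte precursor genes (7 of 10 with a value) had medians of -0.37, 0.37, 0.36, 0.04 and -0.14, with 7 of 7 above sham at day 3 and 0 past 2-fold on that day. Pdgfra, Gpr17 and C1ql1 of this list had no value. Single genes of it went different ways, at day 14 from -3.71 (Vcan, at 0.0424 FPKM) to 0.44 (Tmem100). Cspg4, a proteoglycan gene at low levels, stood at 1.97 FPKM in sham. At days 1, 3, 7, 14 and 28 it was at 1.45, 2.09, 3.41, 2.44 and 1.10 FPKM. Genes of newly formed oligodendrocytes (10 of 10 with a value) had medians of -0.02, 0.09, 0.24, -0.03 and -0.33, and all 9 genes compared at day 28 were below sham, with 1 of them 2-fold lower. Of all compared genes, 6438 of 12052 were above sham at day 3 and 5430 of 11751 were below it at day 28. Genes of the node and paranode that axons supply (11 of 12 with a value) had medians of -0.28, -0.03, -0.12, -0.27 and -0.19. All these medians lie within a small distance of 0, and the differences between the lists were not tested.

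The myelin genes stand beside much larger differences of microglia and macrophage genes at days 3, 7 and 14. Not all other cells differed so much. Neuron genes had median log2 ratios of -0.02, -0.32, -0.29, -0.28 and -0.13 at days 1, 3, 7, 14 and 28. Astrocyte genes had medians of -0.08, 0.29, 0.10, -0.05 and 0.00. Microglia and macrophage genes (11 of 12 with a value) had median log2 ratios of 0.49, 1.83, 2.40, 2.16 and 0.25, with 8 of 9 genes 2-fold higher at day 3 and 7 of 9 at day 7. Their summed level went from 233 FPKM in sham to 1077 FPKM at day 7. The summed level of the 31 myelin and oligodendrocyte genes, led by Mbp and Ptgds, was 3635 FPKM in sham and 4187, 3356, 4002, 4977 and 3466 FPKM after stroke. Without Mbp and Ptgds it was 1319 FPKM in sham and 1464, 1439, 1494, 1599 and 1280 FPKM. FPKM is a share of a library, so a larger contribution of 1 cell type lowers the values of the others, and the extent of this was not tested.

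**Figure D5:**
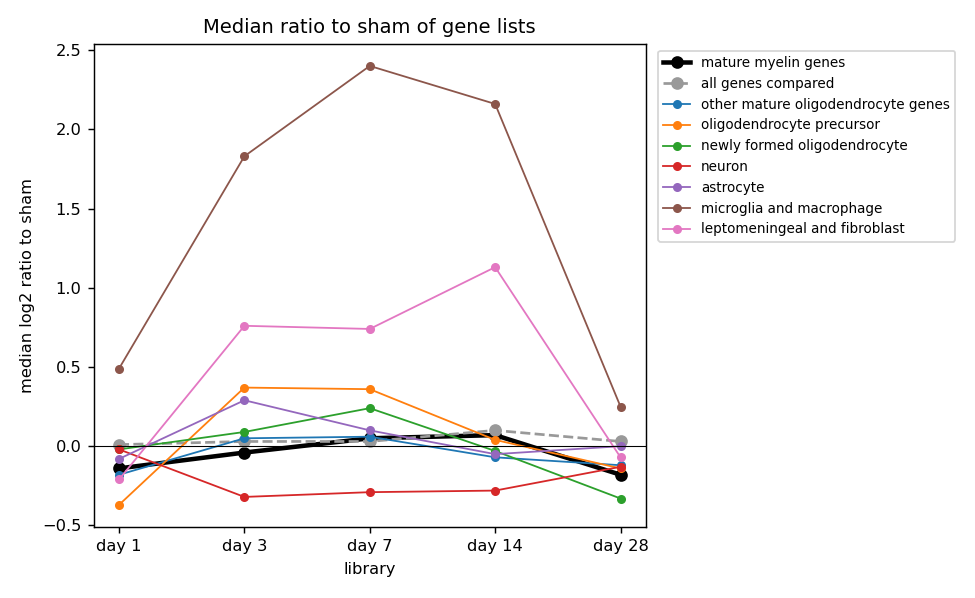
Median log2 ratio to sham (y axis) at days 1, 3, 7, 14 and 28 (x axis) of the mature myelin genes (black), of all genes compared (grey, dashed) and of 7 other gene lists. The black line stays between -0.18 and 0.07, while the microglia and macrophage list reaches 2.40 at day 7.

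The genes whose pattern was most like that of the group were found by Pearson's r over the 6 libraries against the mean standardised level of the members, among 10139 other genes. They were Bfsp2 (r = 0.980), Rab1a (0.978), Hps4 (0.974), Cwc22 (0.965) and Akip1 (0.960). Rab1a, a small GTPase of transport between endoplasmic reticulum and Golgi, stood at 56.1 FPKM in sham and at 52.8, 56.0, 62.4, 59.8 and 48.7 FPKM at days 1, 3, 7, 14 and 28, with day 7 highest and day 28 lowest. The 6 points share their libraries, and a likeness this close over 6 points is a description only.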

How the data were processed

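Poly(A)-selected, strand-specific libraries of 6 pools of mouse cortex RNA were sequenced as paired-end reads of 150 bases. The authors deposited FPKM for each transcript start, transcript end and splicing event, and events at 0 are not listed. The submitters' processing notes name Trimmomatic 0.30, HISAT2 2.0.1 and HTSeq 0.6.1 and the build mm10. The tool that made the event values is not given in the sources used here.

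A gene's level was the largest of its summed starts, its summed ends and any single event, a construction that an earlier analysis of these data chose with the paper's results in view. It is a lower bound for the locus, and a locus can hold parts of neighbouring genes, as for 16 of the 78 Trf events. Ratios used a pseudocount of 0.1 and genes at 1 FPKM or more in 1 of the 2 libraries, and a gene not listed counted as 0. Members and lists were chosen with earlier results of these data known. All 33 members are named, lists are given by counts and medians, and single genes of a list are named only from lists under 15 genes or for Sox10, Olig1 and Olig2, and 1 further gene of that rule is not reported here. No p-value was computed, since each group is 1 library. Positions were matched to GENCODE M21 (GRCm38), and sequences were read from it and from RefSeq. The scripts were tested on simulated data. Another gene value, scaling, pseudocount, filter, threshold and reference and a length trend over 20 bins were tried as alternatives. The computation ran in Python (3.11.15) with pandas (2.3.3) and numpy (2.4.6), and plots were drawn with matplotlib (3.10.9).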

Additional observations from a re-analysis of the deposited data

How the results depend on the processing

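With 1 library per group, an error cannot be separated from a difference, and no library could be left out of a group. No paired analysis was possible because every group is 1 library and the results come from no test. The counts of members 2-fold higher or lower than sham stayed within 1.5 times under pseudocounts of 0.01 and 1, filters of none and 5 FPKM, summed starts, events inside the gene span, genes listed in both libraries and median scaling. The genes behind a count were not always the same, since by the summed starts the gene lower at day 14 was Myrf in place of Nfasc, and Aspa (day 7) and Ptgds (day 14) were added to those higher. With a 1.5-fold threshold, 3, 5 and 3 genes were higher at days 1, 14 and 28, and 4, 3, 1, 4 and 4 were lower at days 1, 3, 7, 14 and 28. By the summed ends, 0 genes were lower at days 3 and 14, since Nfasc could not be compared by its ends, and at day 28 2 were higher (Cnp and Plekhb1) and 2 lower (Ugt8a and Nkx6-2). With the length trend removed, 0 were lower at day 14. Of the alternatives chosen after seeing the data, Mobp by its start events gave 2 lower at day 14, and the median of the other 5 libraries as reference gave 0, 1, 1, 1 and 0 higher at days 1, 3, 7, 14 and 28 and 2 lower at day 1. No single ratio past the 2-fold line in the main setting turned its sign. Some ratios within it there did change sign and pass it under another gene value. Examples are Cnp at day 28 (-0.40, and 3.88 by the summed ends) and Myrf at day 14 (0.06, and -2.96 by the summed starts). Of 150 single ratios of members, the length correction changed the sign of 17 and median scaling of 7, and of those that could be compared, the summed ends changed 6 and the summed starts 3. The median log2 ratio of the members at day 14, 0.07 in the main setting, was -0.03 with median scaling and -0.07 with the length trend removed. By the summed ends it was 0.26.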
